A study of Rattus norvegicus with 48 samples.

Results

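Liver RNA levels of 4 marker genes were followed in 48 rats: Sox9 (ENSRNOG00000002607) and Epcam (ENSRNOG00000015667) as markers of ductular cells, Afp (ENSRNOG00000002889) as a marker of fetal liver and Lcn2 (ENSRNOG00000013973) as a marker of epithelial injury. They were chosen by these identifiers out of 32662 listed genes, and all 4 were among the 12756 genes that passed the filter on low counts (1 or more CPM, counts per 1000000 reads, in 5 or more of the 8 livers of any group). The tables give identifiers without names, so the 4 names come with the rule that chose the genes. Male Wistar rats, 6 weeks old at the start and housed in pairs, received for 4, 8 or 12 weeks a diet of defined amino acids that lacked choline and contained 1% cholesterol (CDAA, spelled CDDA in the sample labels) or the choline-supplemented control diet (CSAA), with 8 animals per diet and week. CDAA held 0.17% methionine and drew 11% of its energy from protein, 31% from fat and 58% from carbohydrate. CSAA held 0.4% methionine and drew 12%, 16% and 72% of its energy from protein, fat and carbohydrate. Only males of this strain were studied. Cages are not named in the labels, so each animal was treated as independent. Sox9 and Lcn2 passed the filter on low counts only through CDAA groups. The filter counted CPM by library size alone, whereas CPM values below carry TMM factors (described below) unless stated otherwise. By library size alone, no CSAA liver reached 1 CPM of Sox9 (at most 0.992, in animal 908 of week 12). On this scale, no CSAA group reached 1 CPM of Lcn2 in 5 livers. Their entry thus depended on high values on CDAA, and so do their ranks among the genes that passed.

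Bile duct cells line the ducts that drain bile from the liver, and in chronic injury small duct-like cells that stain for duct markers spread from the portal tracts, which is known as the ductular reaction. Sox9 is a transcription factor of bile duct and progenitor cells, and Epcam is an adhesion molecule of the duct cell surface that mature hepatocytes largely lack. Afp is the main plasma protein of the fetal liver, and its level falls strongly after birth. Lcn2 is a small secreted protein that binds bacterial iron carriers, is made by stressed epithelia and hepatocytes, and is stored in neutrophil granules.

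Promoters are shown as background to the 4 genes, and their relation to the diet effects was not tested. Of the 4 genes, 3 had an entry among the RefSeq promoters of build GRCr8, and the 250 bases upstream of the start site are printed from 5′ to 3′ on the strand of the gene. Lower case is used throughout except for capitals, which mark matches to 5 short motifs searched on both strands: the HNF1 motif GTTAATNAT, the C/EBP motif TTGCNNAA, the NF-κB motif GGANNNTCC, the GC box GGGCGG and the TATA box TATAAA. The sequences lie on the minus strand at chr6:12649679-12649928 (Epcam), chr14:17875646-17875895 (Afp) and chr3:36081781-36082030 (Lcn2).
Epcam: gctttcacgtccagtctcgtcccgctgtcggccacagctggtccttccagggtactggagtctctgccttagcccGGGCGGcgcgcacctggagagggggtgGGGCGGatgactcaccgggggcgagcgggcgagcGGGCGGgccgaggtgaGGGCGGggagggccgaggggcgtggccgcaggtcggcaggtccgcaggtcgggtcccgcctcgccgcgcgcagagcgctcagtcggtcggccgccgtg
Afp: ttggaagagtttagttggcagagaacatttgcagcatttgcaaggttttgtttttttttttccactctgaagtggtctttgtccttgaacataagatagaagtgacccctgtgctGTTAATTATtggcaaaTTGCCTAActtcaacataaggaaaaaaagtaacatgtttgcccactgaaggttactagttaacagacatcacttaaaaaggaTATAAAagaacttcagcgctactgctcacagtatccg
Lcn2: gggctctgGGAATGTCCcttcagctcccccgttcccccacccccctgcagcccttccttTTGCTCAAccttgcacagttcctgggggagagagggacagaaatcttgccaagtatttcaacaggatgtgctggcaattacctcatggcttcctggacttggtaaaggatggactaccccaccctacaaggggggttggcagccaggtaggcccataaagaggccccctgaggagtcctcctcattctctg

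In the Epcam promoter, 75.6% of the bases were G or C, against a median of 51.2% over 33469 promoters of the same length. It held 4 GC boxes, beginning 175, 148, 114 and 98 bases upstream of the start, and 30.5% of all promoters held at least 1. The Afp promoter was poor in G and C (37.2%). It held an HNF1 match 135 bases upstream (0.666% of all promoters), a C/EBP match 119 bases upstream (9.22%) and a TATA box 37 bases upstream (12.9%). The Lcn2 promoter held an NF-κB match 242 bases upstream (6.76% of all promoters), to a motif that reads alike on both strands, and a C/EBP match 191 bases upstream. No matches overlapped each other. These matches describe letters in the window and do not show that a factor was bound.

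The number of reads on genes lay between 13619274 and 22284359 in the 48 livers. Library sizes were corrected with TMM factors, which bring the bulk of genes to the same level between animals. On the first principal component of all genes, 4 animals lay apart from their groups. Animal 303 (CDAA, week 4) scored 40.1 against -46.3 to -32.2 in the other animals of its group, on the side of the CSAA livers, which scored 35.2 to 77.7 without animals 504 and 908. Animal 504 (CSAA, week 8) scored -3.85 against 35.2 to 76.3, animal 908 (CSAA, week 12) scored 1.61 against 51.2 to 66.8, and animal 1102 (CDAA, week 12) scored -58.4 against -92.0 to -76.1. The 4 were picked without a stated cut-off. Animal 502 (CSAA, week 8), which scored 35.2 against 58.8 in the next higher animal of its group, was kept. Each of the 4 lay toward the other diet on this component, which separates the diets. Leaving them out therefore tends to enlarge diet effects. Results that rest on the 4 animals are given with and without them. Markers of hepatocytes, neutrophils and other liver cells were not analysed here, since no table used here pairs their names with identifiers.

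Sox9, Epcam and Lcn2 rose on CDAA at weeks 4, 8 and 12, and Afp fell at week 8 with TMM factors. Calls needed a log2 fold change of 1 or more in size together with an adjusted p below 0.01, in edgeR's quasi-likelihood test with Benjamini-Hochberg adjustment over all 12756 genes. By these thresholds, 15.7%, 18.1% and 19.4% of genes were higher on CDAA at weeks 4, 8 and 12, and 4.27%, 12.1% and 11.3% were lower. In whole liver tissue, a change in the number of cells of a type and a change in RNA per cell cannot be told apart.

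**Figure D1:**
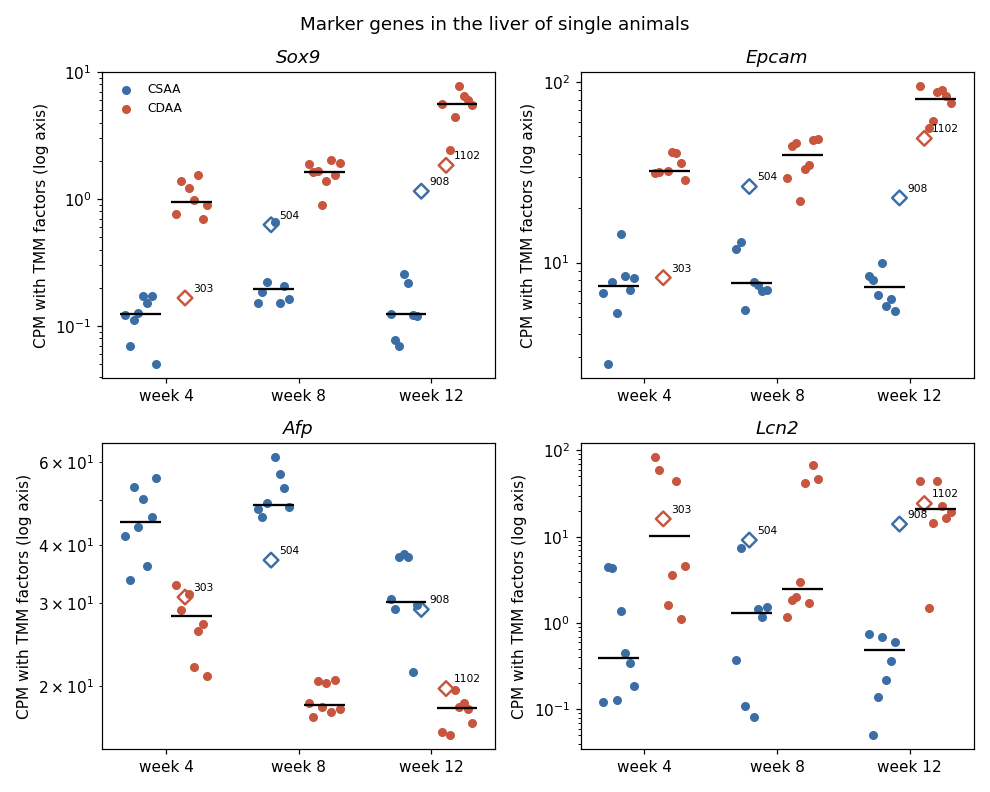
CPM with TMM factors (log axis) in each of the 48 livers by week, for CSAA (blue) and CDAA (red). Points are animals, bars are group medians, open diamonds are the 4 animals that lay apart (303, 504, 908 and 1102), and a value of 0 is drawn at 0.05. At week 12 all 8 CDAA livers lay above all 8 CSAA livers for Sox9 and Epcam and below them for Afp, whereas Lcn2 overlapped through animals 908 and 1103. Of all genes tested, 43.5% did not overlap at week 12.

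Sox9 was low in all CSAA livers. At week 4 it ranged from 0 to 0.173 CPM (median 0.125) on CSAA and from 0.166 to 1.54 CPM (median 0.940) on CDAA. The single overlap came from animal 303, and the other 7 CDAA livers (0.693 to 1.54 CPM) lay above all CSAA livers. At week 8 the range was 0.151 to 0.660 CPM (median 0.196) on CSAA and 0.889 to 2.04 CPM (median 1.65) on CDAA, and at week 12 it was 0.0692 to 1.15 CPM (median 0.124) and 1.84 to 7.79 CPM (median 5.57). The diets did not overlap at weeks 8 and 12, as was the case for 43.0% and 43.5% of all genes (13.3% at week 4).

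Sox9 was 7.67-fold higher on CDAA at week 4 (log2 fold change 2.94 ± 0.48 (SE), n = 8 per group, edgeR adjusted p = 1.04e-06) and 5.39-fold higher at week 8 (2.43 ± 0.39, adjusted p = 4.57e-07). At week 12 it was 18.4-fold higher (4.20 ± 0.38, adjusted p = 2.33e-13), which placed it at rank 74 of 12756 genes by log2 fold change. These folds rest on few reads, since the CSAA livers held 0 to 17 Sox9 reads each and the CDAA livers 3 to 42 at weeks 4 and 8 and 45 to 220 at week 12. The CSAA liver without a Sox9 read (animal 108) allows up to 0.279 CPM (with its TMM factor) by counting error alone. Without animal 908, which held 1.15 CPM, the week 12 effect was 5.12 on the log2 scale, or 34.7-fold.

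Within CDAA, Sox9 differed between weeks 4 and 8 by a log2 fold change of 0.75 (edgeR adjusted p = 0.0451), which did not pass the thresholds. It rose from week 8 to week 12 by 1.63 ± 0.29 (SE, edgeR adjusted p = 0.000304), again at rank 74 of all genes, where 1.43% of genes changed in either direction. From week 4 to week 12 it rose by 2.38 ± 0.31 (edgeR adjusted p = 1.16e-08; 10.6% of genes changed), and 5.02% of genes changed from week 4 to week 8. Within CSAA, no step of Sox9 passed the thresholds (log2 fold changes of 1.26, -0.14 and 1.12 for weeks 8 against 4, 12 against 8 and 12 against 4, with edgeR adjusted p between 0.137 and 0.860). In these CSAA steps 0.0470%, 2.78% and 2.68% of genes changed.

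Epcam was present in every liver and separated the diets most clearly at week 12. It ranged from 2.74 to 14.5 CPM (median 7.46) on CSAA and from 8.25 to 41.1 CPM (median 32.1) on CDAA at week 4. Animal 303 was again the lowest CDAA liver and the only overlap, while the other 7 held 28.6 to 41.1 CPM. At week 8 the CSAA livers held 5.50 to 26.4 CPM (median 7.68) and the CDAA livers 21.8 to 48.6 CPM (median 39.6), where the overlap came from animal 504 (26.4 CPM) and animal 704 (21.8 CPM). At week 12 the ranges of 5.40 to 22.8 CPM (median 7.33) and 48.8 to 95.5 CPM (median 80.2) did not overlap, as for 43.5% of all genes.

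Epcam was 4.09-fold higher on CDAA at week 4 (log2 fold change 2.03 ± 0.30 (SE), n = 8 per group, edgeR adjusted p = 1.23e-07), 3.53-fold at week 8 (1.82 ± 0.29, adjusted p = 3.96e-07) and 8.20-fold at week 12 (3.04 ± 0.30, adjusted p = 3.54e-12). Within CDAA it rose from week 4 to week 12 by 1.27 ± 0.28 (SE, edgeR adjusted p = 0.000128). Its steps from week 4 to 8 (0.29, edgeR adjusted p = 0.391) and from week 8 to 12 (0.97, adjusted p = 0.0227) did not pass the thresholds. On CSAA the medians stayed between 7.33 and 7.68 CPM, and no step passed (log2 fold changes between -0.24 and 0.51, edgeR adjusted p between 0.363 and 0.561).

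**Figure D2:**
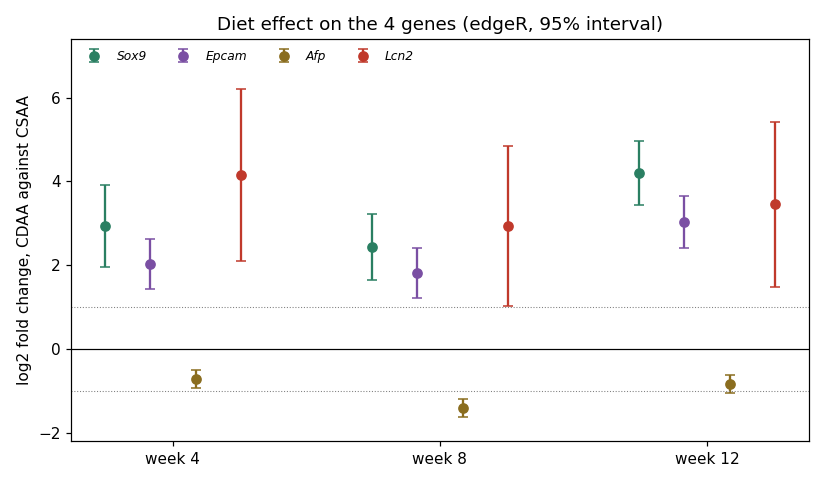
Log2 fold change of CDAA against CSAA (vertical axis) by week for the 4 genes, as edgeR estimates with 95% intervals, n = 8 animals per group. Dotted lines mark log2 fold changes of -1 and 1. Intervals of Sox9, Epcam and Lcn2 lay above 1 at each week, those of Lcn2 were the widest of the 4, and the Afp interval lay wholly below -1 at week 8 alone.

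The diet effect on Sox9 and Epcam was larger at week 12 than at week 8 by 1.77 and 1.22 on the log2 scale, but the differences did not pass the threshold as diet by week interactions (edgeR adjusted p = 0.0197 and 0.0182). In that interaction 4.01% of genes changed. Between weeks 12 and 4 the differences were 1.26 (edgeR adjusted p = 0.198) and 1.00 (adjusted p = 0.0540), where 5.04% of genes changed. Between weeks 8 and 4 they were -0.51 and -0.21 (edgeR adjusted p = 0.584 and 0.726), where 4.25% of genes changed. These calls depended on the animals that lay apart. Those animals were picked on the component that separates the diets, and each lay toward the other diet. Leaving them out thus tends to enlarge diet effects, so the values without them are no independent support. Without animals 303, 504, 908 and 1102, the difference of week 12 to week 8 passed for Sox9 (2.57, edgeR adjusted p = 7.03e-05) and Epcam (1.34, adjusted p = 0.000340), and that of week 12 to week 4 passed for Sox9 (2.22, adjusted p = 0.00246) and Epcam (1.35, adjusted p = 0.000360). More genes passed in general without these animals. Of 12756 genes, 773 then passed between weeks 12 and 8, against 511 with all animals. Between weeks 12 and 4, 877 passed, against 643. Leaving out animal 908 alone gave 2.69 for Sox9 and 1.57 for Epcam between weeks 12 and 8, and 1.35 for Epcam between weeks 12 and 4, all past the thresholds. Leaving out animal 1102 alone gave 1.89 for Sox9 between weeks 12 and 8, also past the thresholds.

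Afp was the least variable of the 4 genes and was lower on CDAA. At week 4 it ranged from 33.6 to 55.7 CPM (median 44.8) on CSAA and from 21.0 to 32.8 CPM (median 28.2) on CDAA. At week 8 the ranges were 37.1 to 61.6 CPM (median 48.7) and 17.2 to 20.6 CPM (median 18.2), and at week 12 they were 21.4 to 38.2 CPM (median 30.2) and 15.7 to 19.7 CPM (median 17.9). With TMM factors the diets did not overlap at any week, and all 8 CDAA livers lay below all 8 CSAA livers. Of all genes tested, 13.3%, 43.0% and 43.5% did not overlap at weeks 4, 8 and 12.

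Afp fell at week 8 by 1.41 on the log2 scale (SE 0.11, n = 8 per group, edgeR adjusted p = 9.90e-16). At week 4 (-0.71 ± 0.10, edgeR adjusted p = 1.47e-07) and week 12 (-0.84 ± 0.11, adjusted p = 1.60e-09) the difference passed the p threshold but not the fold threshold. The diet effect differed between weeks 8 and 4 by -0.70 (edgeR adjusted p = 0.000265) and between weeks 12 and 8 by 0.57 (adjusted p = 0.00262), also short of the fold threshold. Between weeks 12 and 4 the difference was -0.13 (95% interval -0.43 to 0.17). Within CSAA the level at week 12 differed from week 8 by -0.65 (edgeR adjusted p = 1.71e-06), and within CDAA the level at week 8 differed from week 4 by -0.55 (adjusted p = 2.71e-05), while weeks 12 and 8 on CDAA differed by -0.09 (95% interval -0.30 to 0.13).

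The size of the Afp difference depended on the scaling of the libraries. At week 12 the TMM factor averaged 0.777 ± 0.0441 (SD, n = 8) in CSAA livers, while CDAA livers averaged 1.37 ± 0.0515 (SD, n = 8), so that the factors alone lower CDAA values against CSAA values. With library size alone, the median log2 fold change of all genes tested moved from -0.02, 0.05 and -0.09 at weeks 4, 8 and 12 to 0.39, 0.65 and 0.73. Afp then gave -0.31 (edgeR adjusted p = 0.00552), -0.79 (adjusted p = 1.33e-09) and -0.01 (adjusted p = 0.899), and lay below the median of all genes at each week under both scalings. The week 8 value then no longer passed the fold threshold. On this scale the diets overlapped at week 4 (25.5 to 44.8 CPM on CSAA, 22.8 to 36.1 CPM on CDAA) and at week 12 (17.1 to 29.1 and 21.3 to 26.8 CPM), but not at week 8 (37.3 to 47.9 and 21.2 to 27.3 CPM). Sox9, Epcam and Lcn2 were higher on CDAA under both scalings.

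**Figure D3:**
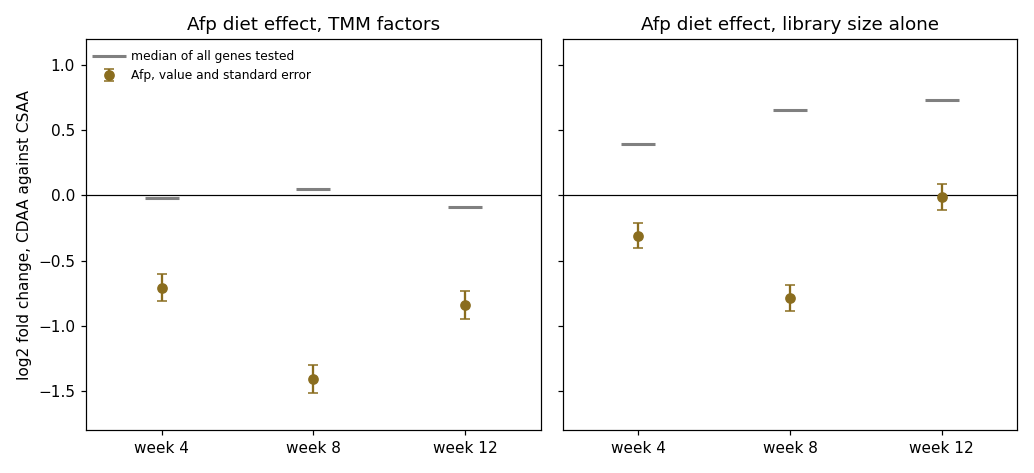
Log2 fold change of Afp, CDAA against CSAA (points, with SE bars), and the median log2 fold change of all 12756 genes tested (grey dashes) by week, with TMM factors (left) and with library size alone (right). The Afp point lay below the grey dash at each week in both panels, and the value at week 12 was -0.84 on the left and -0.01 on the right.

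Lcn2 had the highest log2 fold changes of the 4 genes at weeks 4 and 8 and the widest spread between animals, and its difference to the other genes was not tested. On CSAA it ranged from 0.122 to 4.49 CPM (median 0.400) at week 4, from 0.0825 to 9.15 CPM (median 1.30) at week 8 and from 0 to 14.03 CPM (median 0.483) at week 12. The highest values were those of animal 504 at week 8 and animal 908 at week 12, whose group otherwise held at most 0.752 CPM. The CSAA livers held 2 to 78 Lcn2 reads (median 5) at week 4, 1 to 146 (median 18) at week 8 and 0 to 207 (median 7) at week 12. Without animal 908, those of week 12 held 0 to 12 reads, so the folds of Lcn2 rest on few CSAA reads. The liver without an Lcn2 read (animal 902) allows up to 0.233 CPM (with its TMM factor) by counting error alone.

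On CDAA the livers of weeks 4 and 8 spread widely. At week 4, Lcn2 held 83.8, 59.9, 44.7 and 16.1 CPM in animals 301, 302, 306 and 303, and 4.53, 3.61, 1.61 and 1.12 CPM in animals 308, 305, 304 and 307. At week 8, animals 707, 708 and 705 held 67.99, 46.9 and 42.5 CPM, and the other 5 livers held 1.18 to 3.0 CPM. The highest of these 5 livers thus lay 14.2-fold below the lowest of the 3 high livers. At week 12, 7 of 8 livers held 14.3 to 44.7 CPM, and animal 1103 held 1.51 CPM. The diets overlapped at each week, with 5, 3 and 7 of 8 CDAA livers above all CSAA livers at weeks 4, 8 and 12.

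Lcn2 was 17.9-fold higher on CDAA at week 4 (log2 fold change 4.16 ± 1.02 (SE), n = 8 per group, edgeR adjusted p = 0.000456), 7.65-fold at week 8 (2.94 ± 0.95, adjusted p = 0.00506) and 11.0-fold at week 12 (3.46 ± 0.98, adjusted p = 0.00148). The calls depended on the test: limma-voom gave 3.89, 2.71 and 5.07 with adjusted p of 0.0696, 0.133 and 0.0239, none of which passed. Two-sided exact permutation tests on log2(RPKM + 0.1), run on single genes without adjustment, gave p = 0.00218, 0.0222 and 0.000311 for Lcn2 at weeks 4, 8 and 12. The week 8 call was also lost on leaving out any of 7 single animals (501, 503, 505, 507, 705, 707 or 708), and animal 707 gave the lowest value (2.38, edgeR adjusted p = 0.0220). Without animal 504 the week 8 effect was 3.59 (12.1-fold), and without animal 908 the week 12 effect was 5.84 (57.3-fold).

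No step of Lcn2 between weeks passed the thresholds on either diet, although the median on CDAA was 10.3, 2.51 and 21.1 CPM at weeks 4, 8 and 12. The log2 fold change between weeks 12 and 8 on CDAA was 0.16 with a 95% interval of -1.48 to 1.79, and that between weeks 8 and 4 was -0.36 (-2.002 to 1.28). The diet by week differences were -1.22, 0.52 and -0.70 (weeks 8 against 4, 12 against 8 and 12 against 4), with edgeR adjusted p between 0.525 and 0.801. The biological coefficient of variation within groups was 128% for Lcn2, higher than that of 99.9% of all genes tested. It was 42.8% for Sox9, 39.5% for Epcam and 14.4% for Afp, with a median of 16.1% over all genes.

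Levels of different genes were compared as RPKM, in which reads are scaled to the length of the gene. On CSAA at week 12 the order of medians was Afp (12.3 RPKM), Epcam (3.82), Lcn2 (0.429) and Sox9 (0.0280). On CDAA at week 12 it was Epcam (74.3), Lcn2 (31.9), Afp (12.4) and Sox9 (2.26). On CDAA the order was Epcam (23.7), Afp (15.65), Lcn2 (10.3) and Sox9 (0.2995) at week 4 and Epcam (36.002), Afp (11.7), Lcn2 (3.51) and Sox9 (0.6365) at week 8. At week 12 on CSAA, Epcam (2.81 to 13.4 RPKM) overlapped with Afp (8.59 to 14.6 RPKM) and with Lcn2 (0 to 13.6 RPKM), but only through animal 908. Without it, Epcam (2.81 to 5.16 RPKM) lay below all Afp values and above all Lcn2 values (0 to 0.654 RPKM), while Lcn2 still spanned Sox9 (0.0150 to 0.0570 RPKM). On CDAA, Epcam (42.1 to 93.3 RPKM) and Lcn2 (2.29 to 70.97 RPKM) overlapped, and Lcn2 also spanned Afp (10.7 to 13.5 RPKM), while Sox9 (0.676 to 3.21 RPKM) lay below all Afp values.

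**Figure D4:**
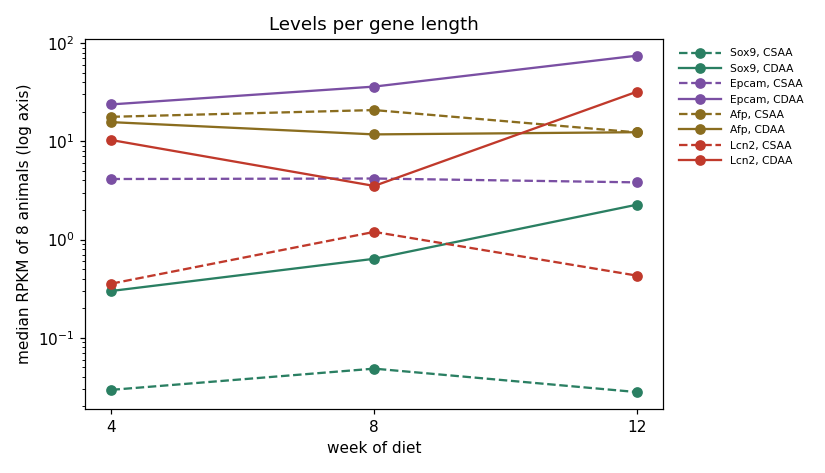
Median RPKM of 8 animals (log axis) by week of diet for the 4 genes, on CSAA (dashed) and CDAA (solid). Epcam and Sox9 lay higher on CDAA at each week, Lcn2 on CDAA was lowest at week 8, and the Afp lines met at week 12 at 12.3 and 12.4 RPKM.

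Whether the genes moved together between animals of a group was asked with 36 correlations of log2 CPM (6 gene pairs in 6 groups of 8 animals, two-sided exact permutation tests, Benjamini-Hochberg adjustment over all 36). No correlation reached an adjusted p below 0.01, the threshold used for genes, and the lowest adjusted p was that of Sox9 and Epcam in CDAA livers at week 12. Pearson's r of Sox9 and Epcam was above 0 in 6 of 6 groups, between 0.263 and 0.927 (median 0.741). In CDAA livers at week 12, r was 0.927 (exact permutation p = 0.00104, adjusted p = 0.0375) and 0.748 without the 2 animals farthest from the median of Sox9. Spearman's rho was 0.833 (exact permutation p = 0.0154, adjusted p = 0.554). In 4 other groups the value rested on the 2 farthest animals: without them r went from 0.896 to -0.0886 (CDAA, week 4), from 0.864 to -0.436 (CSAA, week 12), from 0.434 to -0.464 (CSAA, week 8) and from 0.618 to 0.0806 (CDAA, week 8). In CSAA livers at week 4, r was 0.263, and 0.554 without them.

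Among the CDAA livers of weeks 4 and 8, where Lcn2 spread most widely, r of Lcn2 with the ductular genes was low. That with Sox9 was 0.0686 at week 4 and -0.0704 at week 8 (exact permutation p = 0.911 and 0.910), and that with Epcam was -0.121 and 0.380 (exact permutation p = 0.885 and 0.355). In CDAA livers at week 12, r was 0.539 with Sox9 and 0.557 with Epcam (exact permutation p = 0.176 and 0.128). On CSAA, r of Lcn2 was 0.0571 and -0.200 with Sox9 and Epcam at week 4, -0.00984 and 0.6999 at week 8, and 0.905 and 0.805 at week 12. Next, the 2 animals farthest from the median were left out, by Sox9 or by Epcam according to the pair and not by Lcn2. Then r of Lcn2 fell in some groups and rose in others. On CSAA, r with Sox9 and Epcam was then -0.0794 and 0.439 at week 4, -0.225 and 0.0412 at week 8, and 0.403 and -0.232 at week 12. On CDAA it was 0.200 and 0.104 at week 4, -0.363 and 0.133 at week 8, and 0.635 and 0.739 at week 12. Adjusted exact permutation p-values of the 12 correlations over all 8 animals were 0.221 or above. With 8 animals per group, weak relations were not detectable.

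**Figure D5:**
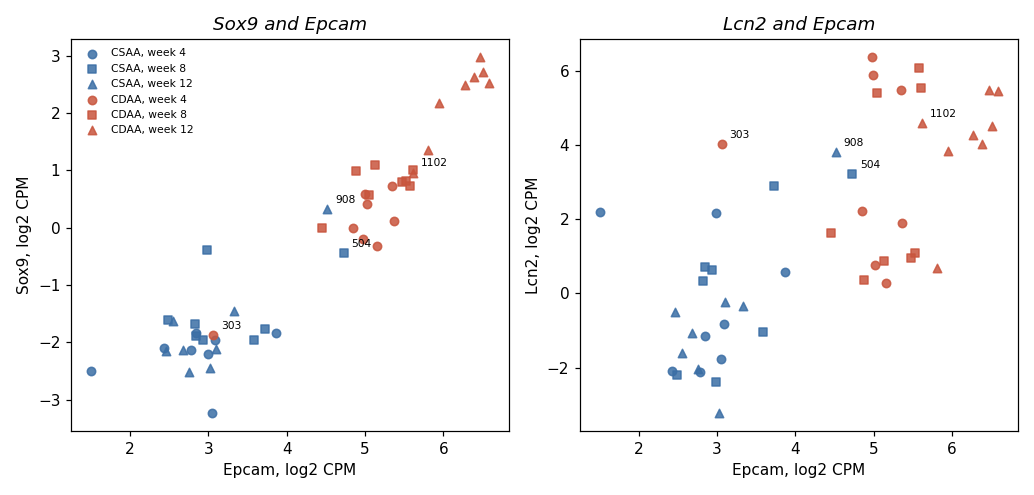
Log2 CPM of Sox9 (left) and Lcn2 (right) against log2 CPM of Epcam in each of the 48 livers, colored by diet and shaped by week, with the 4 animals that lay apart labeled. CDAA livers at week 12 spread along a line for Sox9 and Epcam (r = 0.927), animal 303 lay among the CSAA livers on the left, and the CDAA livers of weeks 4 and 8 spread widely in Lcn2 (1.12 to 83.8 CPM).

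The genes most like each of the 4 were sought over all genes tested, by Pearson's r of log2 CPM after subtraction of the group means over 48 animals, as a description. The highest r was 0.82 for Sox9 (ENSRNOG00000023148) and 0.86 for Epcam (ENSRNOG00000010208), and 58 and 172 genes had an r above 0.7. Without the 4 animals that lay apart, these r were 0.63 and 0.69, and 0 genes were above 0.7 for either. For Afp the highest r was 0.78 (ENSRNOG00000007701), with 0.76 without the 4 animals, and 12 and 8 genes were above 0.7. For Lcn2 no gene reached an r of 0.7, and its highest r was 0.59.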

How the data were processed

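Poly(A) RNA from the liver of 48 rats was sequenced from stranded libraries (single-end). The authors aligned the reads to Rnor_6.0 (Ensembl 84) with STAR, counted them with featureCounts and deposited counts per gene without normalization, together with RPKM values (called FPKM in the paper) that the authors scaled to gene length and library size. FastQC 0.11.2 is named in the submitters' processing notes. Groups were taken from the labels. The 4 genes, the gene lists and the tests were chosen with earlier results of these data known.

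The main test was the quasi-likelihood test of edgeR 4.0.16 (R 4.3.3) with TMM factors, fitted to all 48 animals together with a coefficient for each group and adjusted by Benjamini-Hochberg over 12756 genes. SE was derived from the F statistic. The 4 genes were named in each comparison, and of the 3 genes most like each, only the first was named for 3 of the genes. Alternatives were limma-voom (limma 3.58.1, the test of the paper), DESeq2 1.42.0, RLE factors, library size alone, no filter, a gene length correction, limma on log2(RPKM + 0.1) and log2(RPKM + 1), the animals of the week alone, and leaving out animals. The exact permutation tests of single genes (12870 assignments) were added after the data were seen. Log2 CPM used a prior count of 2. The edgeR, limma-voom and DESeq2 tests were checked on simulated data of week 12, with 200 genes changed equally up and down. They recovered 189, 189 and 191 of these, with 0, 0 and 1 false calls. The simulation held few changed genes, no shift between the diets in the bulk of genes and no animals that lay apart. It therefore does not test the scaling on which the Afp values depend. Within groups, no pair of libraries agreed within sampling noise (168 pairs, lowest chi-square per gene 3.40). Between 13619274 and 22284359 reads per animal were counted. Counting limits cover counting error only. No batch is named in the labels. Gene lists by name were not analysed here. Promoter windows were taken from RefSeq.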

Additional observations from a re-analysis of the deposited data

Results flagged for a closer look

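In 24 groups of 8 animals (4 genes, 6 groups), 5 groups held an animal whose gap to its nearest neighbor in CPM passed Dixon's 95% limit. Chance would give about 1.2 for independent groups of normally distributed values. That need not hold here, since the same animals serve all 4 genes. All 5 values belonged to animals that lay apart on the first principal component. Animal 908 (CSAA, week 12) was the highest of its group for Sox9 (1.15 CPM), Epcam (22.8 CPM) and Lcn2 (14.03 CPM). Animal 303 (CDAA, week 4) was the lowest of its group for Epcam (8.25 CPM), and animal 504 (CSAA, week 8) was the highest of its group for Epcam (26.4 CPM).

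The diet effect on Afp differed between weeks by the adjusted p of the interaction in edgeR's quasi-likelihood test. The difference was -0.70 between weeks 8 and 4 (adjusted p = 0.000265) and 0.57 between weeks 12 and 8 (adjusted p = 0.00262), both short of a log2 fold change of 1.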

How the results depend on the processing

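No paired analysis was possible because the groups share no replicate numbers and the cage pairs are not named in the labels. Of 132 values of the 12 diet effects under other settings, 121 kept their direction and side of the thresholds, 11 no longer passed and 0 reversed. These values include an exact permutation test of each effect, added after the data were seen. That test was judged by an unadjusted p below 0.01, and the other settings by an adjusted p. Afp at week 12, short of the fold threshold throughout, counts among those kept although its -0.84 (adjusted p = 1.60e-09) became -0.014 with library size alone (edgeR adjusted p = 0.899) and -0.0014 and -0.0022 on log2(RPKM + 0.1) and log2(RPKM + 1) (limma adjusted p = 0.990 and 0.983). Sox9 on log2(RPKM + 1) gave 0.34 and 0.58 at weeks 4 and 8, where the pseudocount exceeds all of its values. Afp at week 8 gave -0.79 with library size alone, -0.78 on log2(RPKM + 0.1) in limma and in the exact permutation test, and -0.74 on log2(RPKM + 1). Lcn2 gave 3.89, 2.71 and 5.07 at weeks 4, 8 and 12 in limma-voom, and at week 8 gave 2.93 from the animals of the week alone and 3.06 in the exact permutation test. Leaving out 1 animal at a time gave 2.38 to 3.59 for Lcn2 at week 8.

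For the 36 differences between weeks, 285 of 324 values kept direction and side, 1 no longer passed and 27 reversed. Those that newly passed were, for Sox9 between weeks 12 and 8 of the diet effect, 1.84 (DESeq2), 1.65 (log2(RPKM + 0.1)) and 2.57 (without animals 303, 504, 908 and 1102), and between weeks 12 and 4, 2.12 and 1.12 (log2(RPKM + 0.1) and + 1) and 2.22 (without the 4 animals). For Epcam they were 1.34 between weeks 12 and 8 (without the 4 animals), 1.54 and 1.52 (both RPKM scales) and 1.35 (without the 4 animals) between weeks 12 and 4, and 1.05 on CDAA between weeks 12 and 8 (without the 4 animals). Over all 12756 genes, 511 passed between weeks 12 and 8 of the diet effect in the main test. With DESeq2, on log2(RPKM + 0.1) and without the 4 animals, 587, 766 and 773 passed. Between weeks 12 and 4, 643 passed in the main test. On log2(RPKM + 0.1), on log2(RPKM + 1) and without the 4 animals, 1352, 524 and 877 passed. On CDAA between weeks 12 and 8, 183 passed in the main test and 329 without the 4 animals. Sox9 on CDAA between weeks 12 and 8 no longer passed on log2(RPKM + 1) (0.86).

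The reversals concern differences that did not pass the thresholds. Between weeks 8 and 4 the diet effect of Sox9 gave 0.47 and 0.24 on the RPKM scales and that of Epcam gave 0.13 and 0.18, and 0.014 without the 4 animals. Between weeks 12 and 4 the diet effect of Afp gave 0.29 with library size alone, 0.018 after the length correction and 0.29 and 0.28 on the RPKM scales. That of Lcn2 gave 1.18 in limma-voom, 1.40 and 1.04 on the RPKM scales and 1.66 without the 4 animals. On CDAA, Afp between weeks 12 and 8 gave 0.00021 with library size alone and 0.0023 and 0.0021 on the RPKM scales. Lcn2 on CDAA gave 0.087 between weeks 8 and 4 after the length correction, and between weeks 12 and 4 gave 0.75 in limma-voom, 0.13 with library size alone, 0.24 after the length correction and 1.10 and 0.96 on the RPKM scales. On CSAA between weeks 12 and 4, Epcam gave -0.10 without the 4 animals, and Lcn2 gave -0.43 in limma-voom, -0.30 and -0.073 on the RPKM scales and -1.90 without the 4 animals. The cause was not tested.

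Leaving out 1 animal at a time gave, for the diet effect between weeks 8 and 4, -0.42 to 0.16 (Epcam), between weeks 12 and 8, 1.53 to 2.69 (Sox9), 0.91 to 1.57 (Epcam) and -0.060 to 2.90 (Lcn2), and between weeks 12 and 4, 0.79 to 1.35 (Epcam) and -1.23 to 1.68 (Lcn2). On CDAA, Lcn2 gave -0.92 to 0.16 (weeks 8 and 4), -0.046 to 0.71 (weeks 12 and 8) and -0.41 to 0.31 (weeks 12 and 4). On CSAA between weeks 12 and 8 the ranges were -1.06 to 0.10 (Sox9), -0.59 to 0.067 (Epcam) and -2.75 to 0.22 (Lcn2), and between weeks 12 and 4 they were -0.084 to 0.47 (Epcam) and -1.89 to 1.02 (Lcn2). Few reads limit Sox9 and Lcn2 on CSAA. Alternatives for gene lists by name were not run.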
